A study of Homo sapiens with 6 samples.

Results

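The AP-1 and EGR immediate early factors are 10 genes of 60664 in the deposited table. They are the FOS family (FOS, FOSB, FOSL1, FOSL2), the JUN family (JUN, JUNB, JUND) and 3 EGR genes (EGR1, EGR2, EGR3). The 10 were picked by name through their Ensembl identifiers, with earlier results of these data known. They were followed in 6 RNA-seq libraries of cells labelled LNCaP, a human prostate cancer line, titled LNCaPE and described in the design text as resistant to enzalutamide, an antiandrogen. In 3 libraries the cells carried the control hairpin labelled shNC, and in 3 they carried shPDGFC, a stable short hairpin RNA knockdown of PDGFC, a secreted ligand of PDGF receptors. All 6 were grown in DMEM with fetal bovine serum, and the labels name no further treatment. The labels speak of pooled RNA and do not give the number of hairpins, clones or separate cultures, so a p-value here reflects how much these 6 libraries varied, and that variation may be technical.

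Immediate early genes are transcribed within minutes of a growth signal, without new protein synthesis. Growth factor signalling phosphorylates ETS proteins such as ELK1 that sit with SRF on the promoters of FOS and EGR1, and JNK phosphorylates JUN. FOS and JUN proteins pair through leucine zippers to form AP-1, whereas EGR proteins bind GC-rich DNA through zinc fingers, so the amount of each family member sets which dimers and which sites can be occupied. The series asks whether PDGFC feeds a MAPK cascade in the cells that secrete it, and these genes are among the usual transcriptional readouts of that cascade.

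The libraries held between 17360455 and 23930217 reads. Levels are RPKM (reads scaled by gene length and library size), changes are on the log2(RPKM + 1) scale as shPDGFC minus shNC, and a gene was called at an adjusted p under 0.05 (limma, Benjamini-Hochberg over all genes tested). PDGFC itself was lower in each shPDGFC library (3.0, 2.43 and 2.52 RPKM) than in any shNC library (8.19, 8.71 and 8.13 RPKM; adjusted p = 0.00016). Of 7 prostate luminal markers, KLK2 and KLK3 had 1 read each over all 6 libraries and STEAP4 had 0, whereas FOXA1 (7.26 and 6.91 RPKM in shNC and shPDGFC) and HOXB13 (8.71 and 8.62 RPKM) were expressed. TMPRSS2 (0.63 and 0.45 RPKM) and FOLH1 (1.28 and 1.10 RPKM) were low. KLK3, which encodes prostate-specific antigen, and KLK2 are known as abundant transcripts of LNCaP, unlike their levels here. The reason for their near absence was not tested, nor was the identity of the line. The summed level of the 7 was 17.5 to 18.2 RPKM in shNC and 16.6 to 17.5 RPKM in shPDGFC. The summed level of 5 fibroblast markers was lower in shPDGFC (13.5 to 13.7 RPKM) than in shNC (17.7 to 17.96 RPKM). In that list LUM, the gene for the matrix proteoglycan lumican, fell from 11.3 to 7.96 RPKM (adjusted p = 0.00053), while COL1A2 was at 0 in 4 of the 6 libraries. COL1A1 was at 6.01 and 5.15 RPKM in shNC and shPDGFC and was not called. DCN (0.162 and 0.159 RPKM) and PDGFRB (0.40 and 0.33 RPKM) were too low to be tested. The 4 leukocyte markers summed to at most 0.268 RPKM in any library. The mitochondrial share of reads also differed without overlap, at 3.75% to 4.08% in shNC and 4.20% to 4.68% in shPDGFC. The part of the fibroblast markers and of the mitochondrial share in the results below was not tested.

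In cells carrying the PDGFC hairpin 4 of the 10 factors were higher. EGR1, FOSL1, FOS and JUNB rose to 1.53, 1.47, 1.41 and 1.34 times their mean RPKM in shNC, and no member was called lower. JUN, by far the most abundant of the 10, was at 59.8 RPKM in shNC and 59.2 RPKM in shPDGFC. Of the 10, 8 passed the filter on low values (3 or more libraries at 1 RPKM or above), 4 of these 8 rose, and 4 did not pass the test. Over all 15337 tested genes the share called was 29.8%, with 14.2% higher and 15.6% lower. The tested members had a median log2 change of 0.30, against -0.01 over all tested genes. That median includes FOSB, which passed the filter only through its shPDGFC libraries. The 0 members called lower by limma were also 0 at an unadjusted p under 0.05 and 0 by limma-voom. Cells that use more of a gene and a larger share of cells that use it cannot be told apart in bulk RNA.

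**Figure D1:**
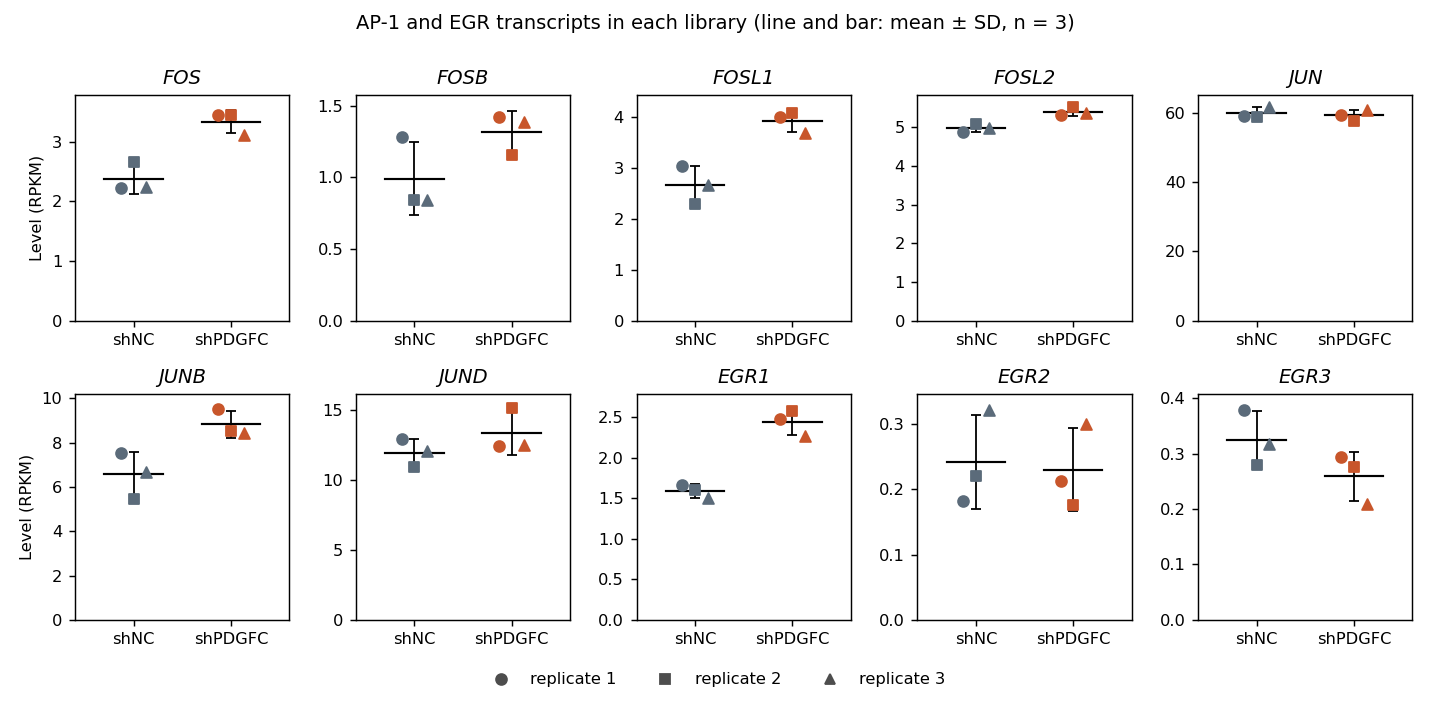
Level of each member in RPKM on a linear axis from 0, one point per library, with shNC in grey and shPDGFC in orange, the symbol giving the replicate number, and the mean ± SD of 3 libraries as line and bar. The groups lie apart in FOS, FOSL1, FOSL2, JUNB and EGR1, and they overlap in the other 5 genes.

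The start-proximal DNA of these genes is shown as background on the motifs it holds. Any part of these motifs in the changes was not tested. Sequences are from RefSeq (GRCh38.p14), which gave 10 starts for 8 of the members and none for FOSL1, and EGR3 is not shown. A RefSeq start can differ from the GENCODE bounds of its gene. The windows of JUN and FOSL2 and every window of EGR2 lie inside those bounds. The window of FOS crosses the GENCODE start of its gene, and that of FOSB ends on it. In the 250 bases before the start, 5 motifs were searched on both strands. They were the CArG box bound by SRF, TGACGT (the core of the element bound by CREB and ATF proteins), TGANTCA (the AP-1 site), TGACATCA (the variant AP-1 site known from the JUN promoter) and GCGNGGGCG (the EGR site). In EGR1 (chr5:138465229-138465478, + strand) the window held 2 CArG boxes, 105 to 96 and 83 to 74 bases before the start, 2 TGACGT cores read on the opposite strand, and 1 EGR site, all in capitals.
EGR1: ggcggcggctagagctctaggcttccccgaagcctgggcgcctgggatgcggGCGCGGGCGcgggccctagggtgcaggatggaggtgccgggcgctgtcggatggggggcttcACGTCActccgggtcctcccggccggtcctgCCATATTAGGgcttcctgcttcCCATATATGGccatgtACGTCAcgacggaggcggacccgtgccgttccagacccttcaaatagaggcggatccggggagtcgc

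Of the 8 members with a sequence, 2 (EGR1 and EGR2) held a CArG box, as did 1.16% of all 35116 promoters of the same length. Sites more than 250 bases before the start were not searched, so FOS and the other members may hold motifs further out. A member counted if any of its listed starts held the motif, whereas the share is per promoter. A TGACGT core was present in 6 of the 8 (FOS, FOSB, FOSL2, JUND, EGR1 and EGR2) and in 7.10% of all promoters. In 5 of these it lay between 70 and 50 bases before the start, a window chosen after the matches were seen, which held the core in 0.883% of all promoters. JUN held TGACATCA in that window, a motif of 2.37% of all promoters over the 250 bases. EGR1 held the EGR site, present in 8.41% of all promoters, and 0 of the 8 held TGANTCA, present in 6.57%. JUNB, which rose, held none of the 5, and FOSB, FOSL2 and JUND held the core and did not pass the test. The 30 bases around the proximal motif, motif in capitals and written on the gene's strand, show its placement. The EGR2 sequence is from the third of its 3 listed starts.
FOS (chr14:75278752-75278781, + strand): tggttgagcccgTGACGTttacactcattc
FOSB (chr19:45467924-45467953, + strand): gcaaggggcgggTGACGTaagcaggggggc
FOSL2 (chr2:28392780-28392809, + strand): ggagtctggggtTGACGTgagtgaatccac
JUN (chr1:58784096-58784125, - strand): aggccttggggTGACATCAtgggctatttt
EGR1 (chr5:138465400-138465429, + strand): atatggccatgtACGTCAcgacggaggcgg
EGR2 (chr10:62816404-62816433, - strand): atatgggcagcgACGTCAcgggtattgaag

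EGR1 encodes the founding zinc finger factor of its family and lies on chromosome 5 (138465490 to 138469315, GENCODE version 29 on GRCh38). Its level was 1.67, 1.61 and 1.5 RPKM in the shNC libraries and 2.48, 2.58 and 2.27 RPKM in the shPDGFC libraries. Every shPDGFC library was above every shNC library. EGR1 rose from 1.59 ± 0.084 to 2.44 ± 0.16 RPKM (SD, n = 3). Its log2 change was 0.41 ± 0.067 (SE; limma, adjusted p = 0.0047) on 325 and 447 reads over the shNC and shPDGFC libraries. It had the smallest p of the 8 tested members and the largest ratio of means of all 10. Even so, it was a low transcript: 16.2% of tested genes lay at or below its mean level.

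EGR2, known for its part in myelination and lymphocyte tolerance, and EGR3, a factor of muscle spindle and lymphocyte development, were below the level tested. EGR2 was measured at 0.182, 0.221 and 0.322 RPKM in shNC and at 0.213, 0.177 and 0.30 RPKM in shPDGFC. EGR3 was measured at 0.380, 0.279 and 0.318 RPKM in shNC and at 0.294, 0.276 and 0.209 RPKM in shPDGFC. Both groups overlapped in both genes. They rested on 47 and 97 reads in shNC and 40 and 68 in shPDGFC, and no difference was detectable at this depth. When genes with a mean RPKM of at least 0.1 were tested, neither passed (limma, adjusted p = 0.934 for EGR2 and 0.520 for EGR3). EGR1 made up 73.7% ± 3.2 of the summed RPKM of the 3 genes in shNC and 83.3% ± 1.7 in shPDGFC (SD, n = 3).

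FOS, the prototype of its family, lies on chromosome 14 (75278774 to 75282230). Its level was 2.22, 2.66 and 2.24 RPKM in shNC and 3.45, 3.46 and 3.12 RPKM in shPDGFC. The groups did not overlap, and shNC replicate 2 stood above the other 2 shNC libraries. FOS rose from 2.37 ± 0.25 to 3.34 ± 0.19 RPKM (SD, n = 3), and its log2 change was 0.37 ± 0.071 (SE; limma, adjusted p = 0.0087). The smallest whole reads that fit its values were 161 in shNC and 205 in shPDGFC, at a length of 1052 bases. Its longest annotated transcript has 2158 bases, so the true reads may be a multiple of these. The RPKM values do not depend on this, whereas the limma-voom result for FOS, which used these reads, does.

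FOSL1 encodes FRA-1, a FOS relative without the C-terminal transactivation domain of FOS that growth factor signalling stabilises in many tumour lines. It lies on chromosome 11 (65892049 to 65900573). FOSL1 was measured at 3.04, 2.29 and 2.66 RPKM in shNC and at 3.99, 4.08 and 3.68 RPKM in shPDGFC. All 3 shPDGFC libraries lay above the highest shNC library. It rose from 2.66 ± 0.38 to 3.92 ± 0.21 RPKM (SD, n = 3), and its log2 change was 0.43 ± 0.083 (SE; limma, adjusted p = 0.0087), on 299 and 389 reads.

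FOSL2, which encodes the sister protein FRA-2, was the most abundant FOS family transcript. It was measured at 4.88, 5.08 and 4.99 RPKM in shNC and at 5.33, 5.52 and 5.36 RPKM in shPDGFC. The groups did not overlap but lay close together, at 4.98 ± 0.10 and 5.4 ± 0.10 RPKM (SD, n = 3). FOSL2 did not pass the test (log2 change 0.10, 95% interval 0.0077 to 0.19; limma, adjusted p = 0.095). The size of its difference was small beside those of FOS and FOSL1, although the difference between these genes was not tested.

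FOSB, which also gives rise to the stable splice form ΔFosB, was the lowest FOS family transcript. It was measured at 1.28, 0.842 and 0.842 RPKM in shNC and at 1.42, 1.15 and 1.38 RPKM in shPDGFC. The groups overlapped because shNC replicate 1 lay above shPDGFC replicate 2. FOSB was tested since all 3 shPDGFC libraries reached 1 RPKM, and it did not pass (log2 change 0.23, 95% interval -0.037 to 0.49; limma, adjusted p = 0.17). It passed with limma-voom on recovered reads (adjusted p = 0.0337), in which 15.1% of 18350 genes were called higher.

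The summed FOS family level was 11.4, 10.9 and 10.7 RPKM in shNC and 14.2, 14.2 and 13.5 RPKM in shPDGFC. Within it the share of FOSL2 was 45.3% ± 2.3 in shNC and 38.7% ± 1.0 in shPDGFC (SD, n = 3). The share of FOSL1 was 24.2% ± 2.9 in shNC and 28% ± 0.77 in shPDGFC. The FOS family thus held more transcript in every shPDGFC library, with FOSL2 the largest member in each of the 6.

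**Figure D2:**
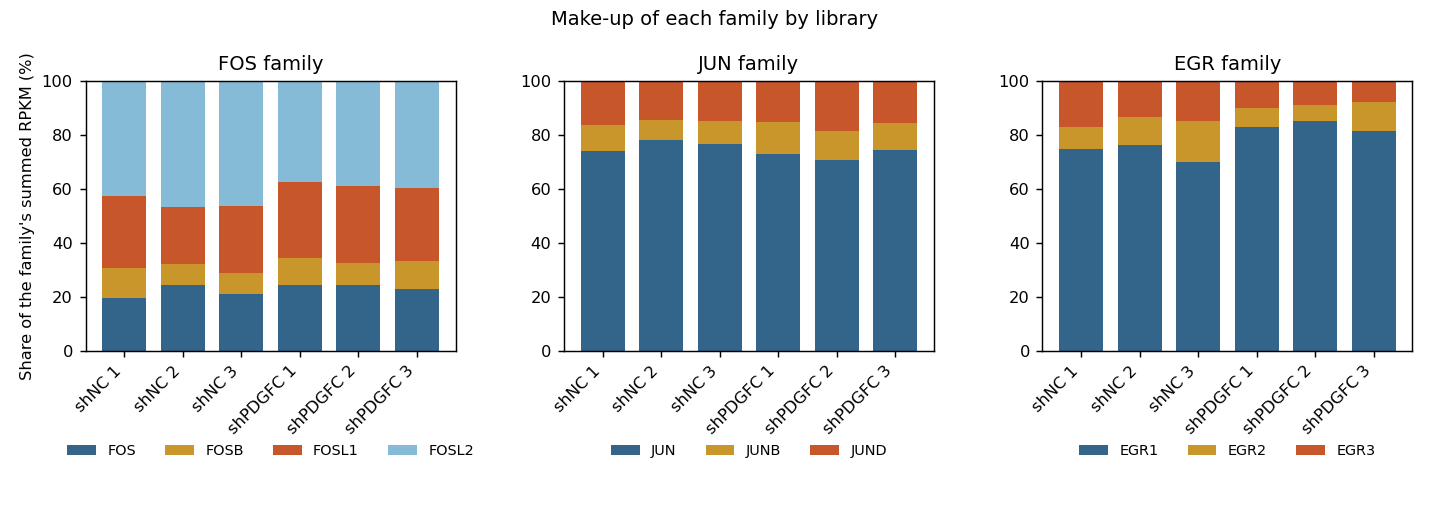
Share of each member in its family's summed RPKM, one bar per library, for the FOS, JUN and EGR families. FOSL2 is the largest FOS family share in each library, JUN holds 70.8% to 78.2% of its family, and EGR1 holds 70.1% to 85.1% of the 3 EGR genes.

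JUN, the principal DNA-binding partner of FOS proteins, lies on chromosome 1 (58780788 to 58784327). It was measured at 58.98, 58.8 and 61.7 RPKM in shNC and at 59.4, 57.6 and 60.6 RPKM in shPDGFC, so 92.7% of tested genes lay at or below its mean level. The groups overlapped. With 12709 and 11250 reads it was the most precisely measured member, and its log2 change was -0.02 with a 95% interval of -0.085 to 0.055 (limma, adjusted p = 0.74). The sign of this change turned with median-ratio scaling (0.00695) and without shNC replicate 3 or shPDGFC replicate 2. A change of JUN of the size seen for FOS or EGR1 lies outside that interval.

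JUNB, which forms AP-1 dimers of weaker transactivation than JUN and is itself serum-induced, lies on chromosome 19 (12791496 to 12793315). It was measured at 7.54, 5.48 and 6.69 RPKM in shNC and at 9.51, 8.55 and 8.42 RPKM in shPDGFC. Every shPDGFC library was above every shNC library, and shNC replicate 2 was the lowest. JUNB rose from 6.57 ± 1.0 to 8.83 ± 0.59 RPKM (SD, n = 3), and its log2 change was 0.38 ± 0.098 (SE; limma, adjusted p = 0.024), on 794 and 939 reads.

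The call for JUNB was the least stable of the 4. It was lost without shNC replicate 3 (adjusted p = 0.0564) or shPDGFC replicate 1 (0.0724), with upper-quartile scaling (0.0534) and with no filter on low values (0.0812). JUNB also shares 259 exon bases with HOOK2 on the opposite strand, and the strand setting of the counting is not given in the sources used here. HOOK2 was measured at 6.86 and 7.37 RPKM in shNC and shPDGFC and did not pass (adjusted p = 0.16).

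JUND, the JUN relative that is usually expressed steadily rather than induced, was measured at 12.9, 10.9 and 12.1 RPKM in shNC and at 12.4, 15.2 and 12.5 RPKM in shPDGFC. The groups overlapped, and shPDGFC replicate 2 stood above the other 5 libraries. JUND did not pass (log2 change 0.14, 95% interval -0.055 to 0.34; limma, adjusted p = 0.24). JUNB and JUND together, a sum that leaves out JUN, were at 20.5, 16.4 and 18.8 RPKM in shNC and at 21.9, 23.7 and 20.9 RPKM in shPDGFC, without overlap. With JUN the family summed to 75.2 to 80.5 RPKM in shNC and 81.3 to 81.5 RPKM in shPDGFC. The groups did not overlap in 46.8% of all single tested genes.

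The summed JUN family RPKM was 7.12 ± 0.33 times the summed FOS family RPKM in shNC and 5.83 ± 0.17 times in shPDGFC (SD, n = 3). This ratio was 6.95, 6.92 and 7.5 in the shNC libraries and 5.73, 5.72 and 6.02 in the shPDGFC libraries. JUN family transcripts were in excess in each library, and that excess was smaller in all 3 shPDGFC libraries. The ratio is formed from the same values as the family sums above and was not tested. In order of mean level over the 6 libraries the members ran from JUN (59.5 RPKM) through JUND (12.7), JUNB (7.70), FOSL2 (5.19), FOSL1 (3.29), FOS (2.86), EGR1 (2.02), FOSB (1.15) and EGR3 (0.293) to EGR2 (0.236 RPKM). Among neighbours in that order, EGR3 and EGR2 overlapped in their ranges in both groups, FOSL1 and FOS overlapped in shNC and not in shPDGFC, and the other neighbours did not overlap in either group.

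The groups did not overlap in 5 of the 8 tested members, namely FOS, FOSL1, FOSL2, JUNB and EGR1, and in 46.8% of all tested genes. In all 5 shPDGFC was the higher group, as in 21.7% of all tested genes. Under the 14 alternatives, EGR1, FOS and FOSL1 passed in each, with log2 changes between 0.38 and 0.62, 0.34 and 0.51, and 0.35 and 0.55. With upper-quartile scaling the calls over all genes were 859 higher and 2181 lower, against 2173 and 2398 without it. Their higher share was then 28.3% in place of 47.5%, and it was 56.2% with median-ratio scaling.

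**Figure D3:**
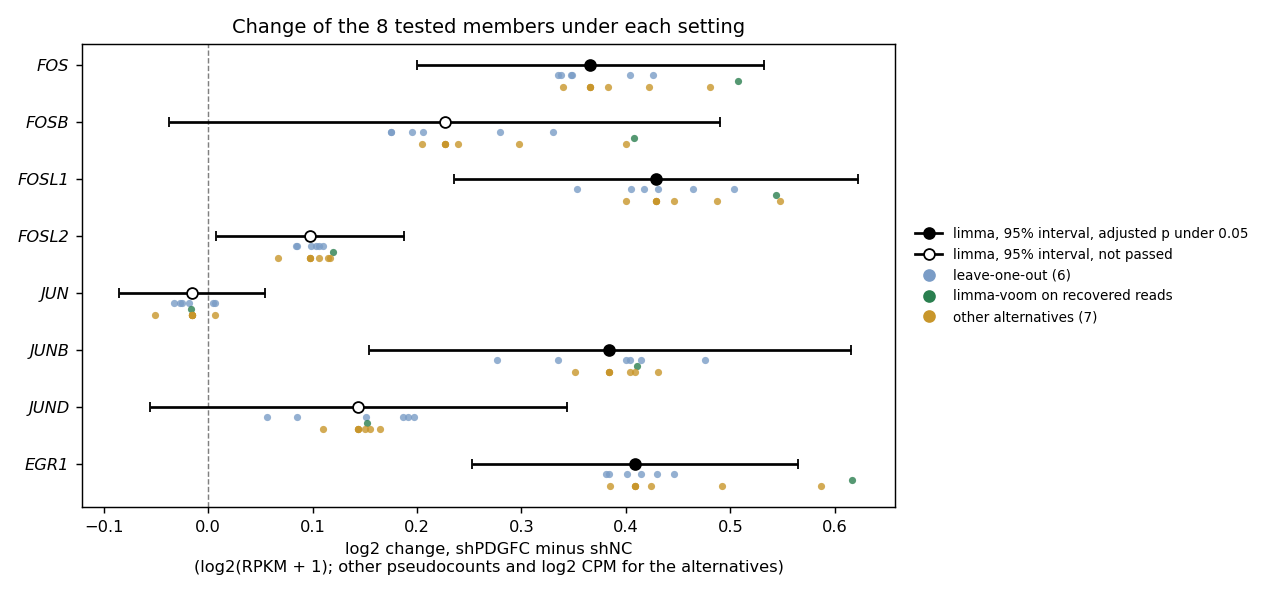
Log2 change (shPDGFC minus shNC) of the 8 tested members, with the limma estimate and its 95% interval in black, filled where the adjusted p was under 0.05, and the 14 alternatives as coloured points below it. FOS, FOSB, FOSL1, FOSL2, JUNB, JUND and EGR1 stay right of 0 under each alternative, whereas JUN lies on both sides of 0.

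**Figure D4:**
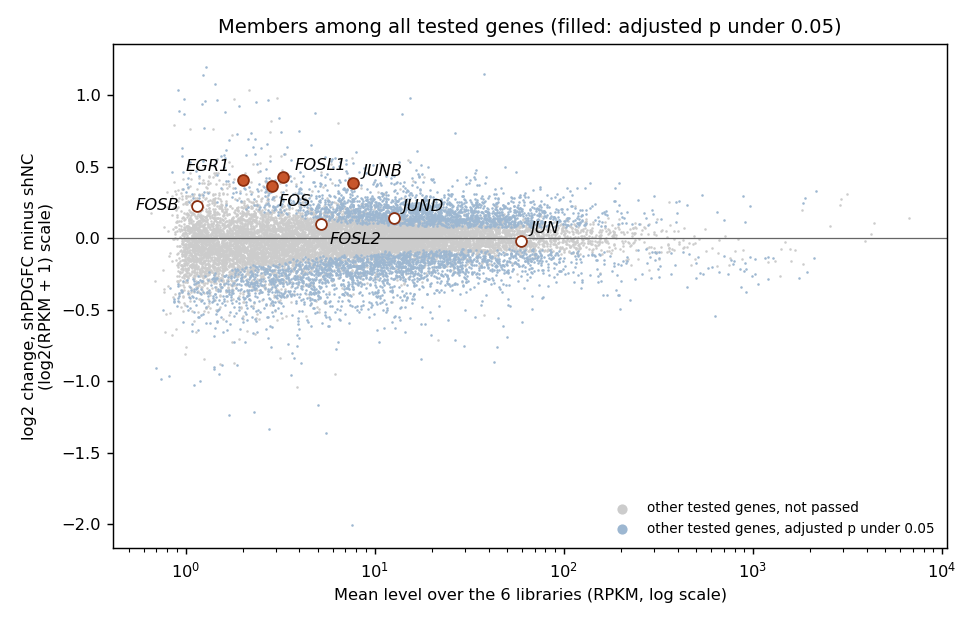
Log2 change (shPDGFC minus shNC, log2(RPKM + 1) scale) against mean RPKM (log axis) for the 15337 tested genes, with those past an adjusted p of 0.05 in blue and the 8 tested members in orange (filled where called). The 4 members that rose lie between 2.02 and 7.70 RPKM, and JUN lies at 59.5 RPKM near a change of 0.

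The genes with the most similar pattern were sought for each member that rose, as the 2 tested non-members with the largest Pearson correlation over the 6 libraries. For EGR1 these were BCL2 (r = 0.9995) and XKR8 (0.998), for FOS HERPUD1 (0.998) and OTUB1 (0.997), for FOSL1 MLLT1 (0.9986) and TRAPPC11 (0.9945), and for JUNB NUP93 (0.9945) and BMP1 (0.9945). Such likeness was common, since between 110 and 573 genes reached r = 0.95 with each of these members, and all were measured in the same 6 libraries with the same depths. BCL2, NUP93 and BMP1 were not called between the groups (adjusted p = 0.091, 0.21 and 0.097).

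The lists of related genes held 76 tested genes, of which 32 rose and 7 fell, where 14.2% and 15.6% of all tested genes did. With upper-quartile scaling 18 rose, with no filter on low values 21 rose, and with limma-voom 13 fell. Without CXCL8, which entered the test only through shPDGFC, 75 were tested in the main fit, 31 rose and 7 fell. Of 27 other immediate early genes tested, 14 rose and 3 fell, with a median log2 change of 0.20. CCN1, a matricellular protein gene, rose from 6.15 ± 0.42 to 9.86 ± 0.30 RPKM and KLF6, a zinc finger factor, from 9.14 ± 0.33 to 12.3 ± 0.086 RPKM (SD, n = 3; adjusted p = 0.00058 and 0.00065). MYC fell from 32.8 ± 0.29 to 26.03 ± 0.86 RPKM, and BTG2, an antiproliferative gene that p53 also induces, from 18.4 ± 1.2 to 12.2 ± 0.76 RPKM (adjusted p = 0.00074 and 0.0010). The third that fell was RHOB (36.2 to 30.6 RPKM, adjusted p = 0.0033), named after its values were seen. MCL1, the most abundant of the list, rose from 73.4 to 84.2 RPKM (adjusted p = 0.0017).

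Among the immediate early genes below the level tested, ARC, which encodes a synaptic capsid-like protein and is a known EGR target, was the only gene with groups apart (KLF2, PLK3 and SOCS3 were the others). It was measured at 0.467, 0.557 and 0.458 RPKM in shNC and at 1.21, 1.09 and 0.944 RPKM in shPDGFC. It passed when genes with a mean RPKM of at least 0.1 were tested (limma, adjusted p = 0.00876). ARC was picked out after its values were seen. The nuclear receptor genes NR4A1 (5.27 and 5.39 RPKM), NR4A2 (1.97 and 1.99 RPKM) and NR4A3 (1.10 and 1.12 RPKM) were not called (adjusted p = 0.76, 0.93 and 0.92) and were likewise picked out afterwards.

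Of 18 genes known as AP-1 targets, 10 were tested, 6 rose and 0 fell by limma, with a median log2 change of 0.22. Without CXCL8, left out after its values were seen because it entered the test only through shPDGFC, 9 were tested and 5 rose, also with a median of 0.22. The 4 that were not called were HMGA1 (90.3 and 92.5 RPKM in shNC and shPDGFC), VEGFA (22.01 and 20.17), PLAUR (4.59 and 4.96) and CD44 (3.40 and 3.51 RPKM). Without adjustment 1 target, VEGFA, was lower at a p under 0.05, and limma-voom called 1 target lower. VIM, the gene for the intermediate filament vimentin, rose from 270.4 ± 3.9 to 332.6 ± 7.5 RPKM, and CCND1, the gene for cyclin D1, from 31.9 ± 0.60 to 37.5 ± 0.36 RPKM (SD, n = 3; adjusted p = 0.00077 and 0.0010). VIM shares 641 exon bases with VIM-AS1 (5.35 RPKM) and 619 with another antisense gene (3.84 RPKM), and CCND1 shares 497 with LTO1 (10.4 RPKM), all on the opposite strand. The classical collagenase and stromelysin targets were nearly silent, with MMP1 at 0.066 and 0.103 RPKM in shNC and shPDGFC and MMP3 at 0 in 5 of the 6 libraries. CXCL8, the gene for interleukin 8, rose from 0.731 to 1.2 RPKM (adjusted p = 0.041), but it entered the test only because all 3 shPDGFC libraries reached 1 RPKM. Its call was lost without any 1 of the shNC libraries (adjusted p between 0.0755 and 0.104), with the replicate block (0.0771), with upper-quartile scaling (0.0674) and with no filter (0.107).

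Of the alternative AP-1 partners, 14 were listed. Of 12 tested, 3 rose and 1 fell, with a median log2 change of 0.08. ATF3, a stress-induced partner of JUN and the most abundant of the list, rose from 48.2 ± 0.29 to 53.8 ± 0.32 RPKM, and the small MAF protein gene MAFF from 1.87 ± 0.22 to 2.55 ± 0.043 RPKM (SD, n = 3; adjusted p = 0.0023 and 0.018). MAF fell from 16.9 ± 0.21 to 15.0 ± 0.28 RPKM (adjusted p = 0.0051). ATF3 was not called with upper-quartile scaling (adjusted p = 0.0736), and MAFF not without shPDGFC replicate 1 (0.0504) or with no filter on low values (0.0586).

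The next lists hold factors and kinases that act upstream of these genes. Of 8 genes for SRF, its cofactors and CREB proteins, 2 rose and 2 fell. CREM, which encodes activators and the repressor ICER, rose from 20.1 ± 0.36 to 24.5 ± 1.3 RPKM, and MRTFA, an actin-regulated SRF cofactor, from 5.95 to 6.83 RPKM (adjusted p = 0.0034 and 0.015). The ETS-type SRF partners ELK3 (14.8 to 13.0 RPKM) and ELK4 (6.13 to 5.25 RPKM) fell (adjusted p = 0.0071 and 0.040). SRF itself was at 10.6 and 10.4 RPKM and ELK1 at 17.8 and 18.4 RPKM, and neither passed (adjusted p = 0.44 and 0.30). The call for MRTFA was lost without shNC replicate 1 (adjusted p = 0.0512) or 3 (0.0553) and with upper-quartile scaling. That for ELK4 was lost under 8 of the 14 alternatives, among them those without shNC replicate 1 (0.119), shNC replicate 3 (0.108), shPDGFC replicate 1 (0.108) and shPDGFC replicate 3 (0.0898).

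Of 12 tested kinase genes 6 rose and 0 fell by limma (0 lower at an unadjusted p under 0.05, 1 by limma-voom), with a median log2 change of 0.10. MAPK14, the gene for p38 alpha, rose (adjusted p = 0.0024), with means of 25.97 ± 0.47 RPKM in shNC and 29.7 ± 0.37 RPKM in shPDGFC (SD, n = 3). The JNK genes MAPK8 (8.55 to 9.28 RPKM) and MAPK9 (23.1 to 25.6 RPKM), named after their values were seen, rose as well (adjusted p = 0.030 and 0.013). Of 4 ubiquitin ligase genes COP1, whose product targets JUN in human cells, rose (14.5 to 16.3 RPKM, adjusted p = 0.021) and FBXW7, whose product also targets JUN, fell (11.1 to 10.0 RPKM, adjusted p = 0.021). COP1 lost its call under 5 of the 14 alternatives, among them upper-quartile scaling (adjusted p = 0.13), no filter (0.0551) and each shNC library left out (between 0.0524 and 0.0602). FBXW7 lost it under 6, which were the replicate block (0.0667), median-ratio scaling (0.052) and replicate 2 or 3 of either group left out (between 0.0568 and 0.0744). ITCH, the most abundant, was at 20.3 and 20.8 RPKM (adjusted p = 0.38).

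Of the EGR relatives and co-repressors 3 were tested and 0 were called by limma, with 2 at an unadjusted p under 0.05. WT1, a zinc finger factor that binds EGR-like sites, was at 2.34 and 2.96 RPKM in shNC and shPDGFC (adjusted p = 0.062) and was picked out after its values were seen. NAB1, a co-repressor that binds EGR1, had means of 20.7 ± 0.76 in shNC and 18.96 ± 0.94 RPKM in shPDGFC (SD, n = 3; adjusted p = 0.068), and was called lower with limma-voom (0.00631) and without shPDGFC replicate 1 (0.0263). NAB2, the co-repressor that EGR1 is known to induce, was at 7.20 and 7.33 RPKM (adjusted p = 0.79).

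**Figure D5:**
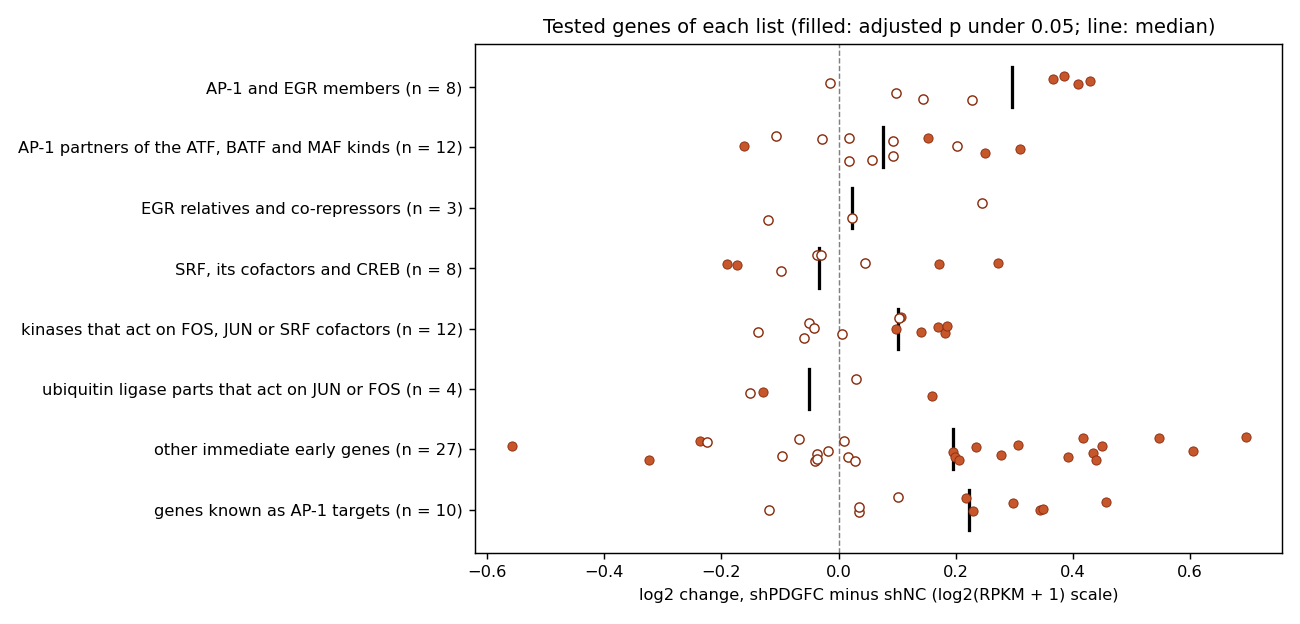
Log2 change (shPDGFC minus shNC, log2(RPKM + 1) scale) of each tested gene of the AP-1 and EGR members and of the related lists, 1 point per gene, filled where the adjusted p was under 0.05, with the list's median as a line. The medians are 0.30 for the members, 0.20 for other immediate early genes and 0.22 for known AP-1 targets, and the points of the SRF list lie on both sides of 0.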

How the data were processed

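The authors deposited 1 table of RPKM values per gene and library; per the labels, the Ion Total RNA-Seq kit was used for single-end libraries. The header names no unit, which was read from the values: the ratios between libraries gave library totals, and with these all 37040 genes above 0 resolved into whole reads (tolerance 1e-09), taken as the smallest whole numbers that fit. The recovered reads made up between 99.45% and 99.46% of the totals. GRCm38 and mm10, both mouse, are the builds in the submitters' processing notes, although the 60664 identifiers are human. No aligner, counter or strand setting is given in the sources used here. Symbols and coordinates come from GENCODE version 29 by identifier, and promoter sequences from RefSeq (GRCh38.p14).

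The 15337 genes that reached 1 RPKM in 3 or more libraries entered limma 3.58.1 (R 4.3.3). Values were log2(RPKM + 1), with an intensity-dependent prior variance, no block and Benjamini-Hochberg adjustment. The procedure was tested on simulated reads, where recovery was required only for larger fold changes than those of the members that rose. The spread between simulated libraries was set, not taken from these data. Alternatives were other pseudocounts (0.1, 0.5), filters and scalings, limma-voom on recovered reads (at least 10 reads in at least 3 libraries), a replicate block, and each library left out.

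The members and lists were chosen with earlier results of these data known. Named were all members, the 2 higher and 2 lower genes with the smallest p and the most abundant gene of each list, and the 2 genes most like each member that rose. One gene that this rule names is not reported here. Other genes named were chosen after their values were seen, including the marker genes, SRF, ELK1, NAB2, WT1, HMGA1, VEGFA, PLAUR, CD44, MMP1 and MMP3. The number of libraries limits precision.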

Additional observations from a re-analysis of the deposited data

How the results depend on the processing

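EGR1, FOS and FOSL1 kept their calls under all 14 alternatives, and the count of members called higher stayed between 3 and 5. It was 3 with no filter on low values, with upper-quartile scaling, and without shNC replicate 3 or shPDGFC replicate 1, where JUNB was lost, and 5 with limma-voom, where FOSB was added. Leaving out 1 library gave between 3 and 4. With upper-quartile scaling 859 genes were called higher over all genes tested and 18 in the related lists, and with no filter on low values 21 in the related lists. With limma-voom on recovered reads 13 genes of the related lists were called lower, and the log2 change of EGR3 was -0.35 against -0.07. The causes were not tested. The replicate numbers did not pair the libraries: the deviations of same-numbered libraries from their group means correlated at -0.101, -0.111 and -0.018. With the replicate block, 1628 genes were called higher and 1841 lower, and 4 members higher. EGR2 and EGR3 were limited by depth, at 11 to 41 reads per library.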
